A study of Mus musculus with 4 samples.

Results

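The genes of nucleotide excision repair, the pathway that cuts bulky adducts out of DNA, were examined in liver RNA of mice treated with aristolochic acid I (AAI), a plant toxin and carcinogen that damages the kidney. The members were 39 genes chosen by name from the known steps of the pathway, out of 36974 gene names on the array. They comprise 5 genes of global damage recognition, 3 of transcription-coupled recognition, 10 subunits of transcription factor TFIIH, 4 genes of damage verification and single-strand binding, 3 of incision, 11 of resynthesis and 3 of ligation. The array held 87 probes for them, with 1 probe for 11 genes and several for 28, and the brightest probe (the highest mean log2 signal over the arrays) represents a gene. Liver RNA came from 4 groups of C57BL/6 wild-type mice that were 6 weeks old. Females received AAI at 5 mg/kg/day and males at 2 mg/kg/day, injected i.p. on 5 days of each week over 3 weeks, and the vehicle group of each sex received corn oil, in which AAI had been dissolved. RNA of 5 mice per group was mixed in equal amounts and hybridized to 1 array per group. There was therefore no replicate error and no p-value, array and group could not be told apart, and sex and dose could not be told apart in the treated groups.

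Nucleotide excision repair handles lesions that distort the double helix, among them the adducts that activated aristolochic acid forms on purine bases. In the global branch the XPC complex and the DDB proteins find the damage anywhere in the genome, whereas in the transcription-coupled branch a stalled RNA polymerase recruits CSB, CSA and XAB2. Both branches then share TFIIH, which unwinds the strands, XPA and the single-strand binding protein RPA, the nucleases that cut on each side of the lesion, and the polymerases and ligases that refill and seal the gap. The liver is the main site of xenobiotic metabolism, and the products of many of these genes also serve transcription or replication.

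Values are log2 signals after quantile normalization, a ratio is the difference of the AAI pool from the corn oil pool of that sex on this scale, and folds are its linear equivalent. Error was judged below by how far the log2 ratios from different probes of one gene lay apart. The median SD between such probes was 0.25 for females (9108 genes) and 0.24 for males (8601 genes). Probes spotted repeatedly on an array (294 to 298 per array) had log2 signals with a median SD from 0.045 to 0.084. Neither SD includes the spread between mice. The groups carried the labelled sex, since the Y-linked genes Ddx3y and Eif2s3y were above background in both male pools and in neither female pool. All 6 hepatocyte markers were above background on every array. Alb and Serpina1a lie at the top of the scale, where quantile normalization holds the arrays level. Among the others, Cps1 had a log2 ratio of 0.75 in females, and Fgb had 0.57 and Apoa1 -0.43 in males. Markers of other tissues differed between the pools, however. The summed signal of 6 skeletal muscle markers (Acta1, Ckm, Myh4, Tnnc2, Mb and Mylpf, all above background on every array) was 8.80 and 14.75 in corn oil- and AAI-treated females and 11.65 and 17.84 in corn oil- and AAI-treated males. That of 6 adrenal markers was 11.32, 11.27, 11.94 and 14.64 in the same order, that of 6 fat markers was 12.19, 12.33, 12.50 and 15.66, and that of immune cell markers was 16.15, 14.99, 15.82 and 15.43. That of 3 bile duct markers was 8.47, 7.68, 7.45 and 8.55, lower after AAI in females and higher in males, and led by Krt19 with ratios of -1.20 and 1.26. Summed stellate cell and fibroblast markers ranged from 15.74 to 16.30, endothelial markers from 14.98 to 15.41 and kidney markers from 10.02 to 10.48. Such sums follow the brightest gene, which for stellate cells and fibroblasts was Dcn, with ratios of 0.12 in females and 0.54 in males. The others of that list were Des with 1.65 and 4.55, Col1a1 with 0.58 and 1.13, Col3a1 with 0.56 and 0.84 and Lrat with -0.30 and -0.59. Of the 6 fat markers 4 were higher after AAI in males, whereas Plin1 and Lep had -0.72 and -0.06 there and -0.67 and 0.08 in females. In corn oil-treated females only 4 fat markers were above background. Of the 6 measured immune cell markers 5 were lower after AAI in each sex, and Cd79a was higher, with 0.34 in females and 0.46 in males. The part of these tissues in the ratios below was not tested. In pooled tissue, fewer cells of a type and less RNA per cell cannot be told apart. A further difference concerned the array of AAI-treated females, where 100% of the brighter spots had a processed signal within 1% of the background-subtracted one, against 7.33% to 14.7% on the other arrays, so that no correction for a trend across the slide was visible in it. Applying the trend correction to all 4 arrays moved the female ratios of Xab2 and Ercc5 by more than the SD between probes. Those of Xab2 (-0.23), Rpa2 (0.24), Pole (0.25) and Rfc5 (0.18) then lay within that SD, and that of Rad23b (-0.29) lay beyond it. Those of Ercc8, Cdk7 and Xpa became -0.00, -0.01 and -0.02. In males the ratio of Pold2 (0.22) then lay within the SD, and those of Ccnh (-0.25) and Pold3 (-0.24) lay beyond it.

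Of the 39 genes, 37 were above background on all 4 arrays, and Ercc6 and Pole2 were not. By its brightest probe, no member was 2-fold higher or lower after AAI in either sex, while 4.41% of 31636 genes in females and 8.03% of 30489 genes in males were. At a lower bar of 1.5-fold, 5 of 39 members passed in females, against 17.7% of all genes (7.81% higher and 9.93% lower). Pold2 was higher, and Ercc2, Xab2, Pold3 and Pole2 were lower, Pole2 by comparison with a signal not above background. In males 0 of 38 passed, against 20.8%. The median log2 ratio of the 37 measured members was 0.07 in females and 0.06 in males, beside 0.04 and 0.02 over all genes. The members were also spread less widely, with the middle part of their ratios (the interquartile range) between -0.15 and 0.20 in females and between -0.08 and 0.24 in males, beside -0.25 to 0.30 and -0.26 to 0.27 over all genes. In each sex 12 of 37 ratios exceeded the SD between probes, which is 32.4% of the members and compares with 54.1% of all genes in females and 54.9% in males. Among genes with a mean log2 signal of 8 or more the shares were 29.4% of 34 members and 48.7% of all genes in females, and 29.4% and 50.2% in males.

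**Figure D1:**
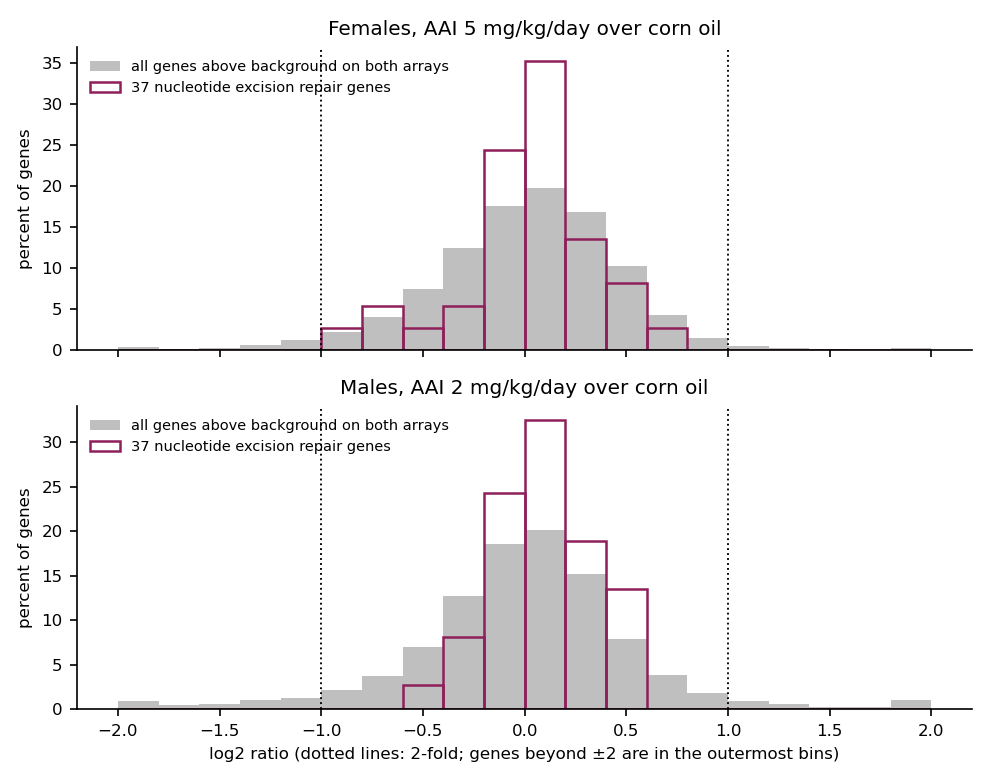
Share of genes (percent, y axis) per bin of the log2 ratio (x axis) between livers given AAI and livers given corn oil, for all genes above background on both arrays (grey) and for the 37 measured nucleotide excision repair genes (outlined), in females (top) and males (bottom). Every member lies within the dotted 2-fold lines, between -0.87 and 0.76 in females and between -0.45 and 0.53 in males.

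The largest ratio in females was that of Ercc2, which encodes the XPD helicase of TFIIH and opens the DNA around the lesion. Its log2 signals in control and AAI-treated females were 8.99 and 8.11, and those in control and AAI-treated males were 8.42 and 8.96. It was thus 1.83-fold lower in treated females and 1.44-fold higher in treated males, the only member whose ratios had opposite signs and exceeded the SD between probes in both sexes (10.2% of all genes did so). The difference between the sexes was not tested. The largest increase in females was that of Pold2, a small subunit of DNA polymerase delta, with signals of 9.99 and 10.76 in corn oil- and AAI-treated females and of 10.05 and 10.29 in males. It was higher after AAI in both sexes, 1.70-fold in females and 1.18-fold in males. Stretches of these 2 probes are shown because the most changed values of the pathway rest on them, with positions on mouse genome build mm9 as the files give them and the polyadenylation hexamer AATAAA in capitals.
Ercc2 probe (NM_007949, chr7:19980982-19981041, plus strand, bases 25 to 54 of 60): ccaccatgacacAATAAAatctgataggac
Pold2 probe (NM_008894, chr11:5772194-5772252, minus strand, bases 29 to 58 of 60): gcaagccctgtaAATAAAacatgaattttt
The hexamer stands in 4 of the 39 brightest member probes (10.3%) and in 10.9% of the brightest probes of all genes. In the RefSeq annotation of build GRCm38 the span of Ercc2 shares 1255 bases with that of Klc3, a kinesin light chain, whose log2 ratio was -0.33 in females and 0.62 in males. The ratio of Ercc2 in females was -0.63 with the trend correction applied to all arrays, since its spot lies in the first column of the array. Its other probe was above background on no array.

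**Figure D2:**
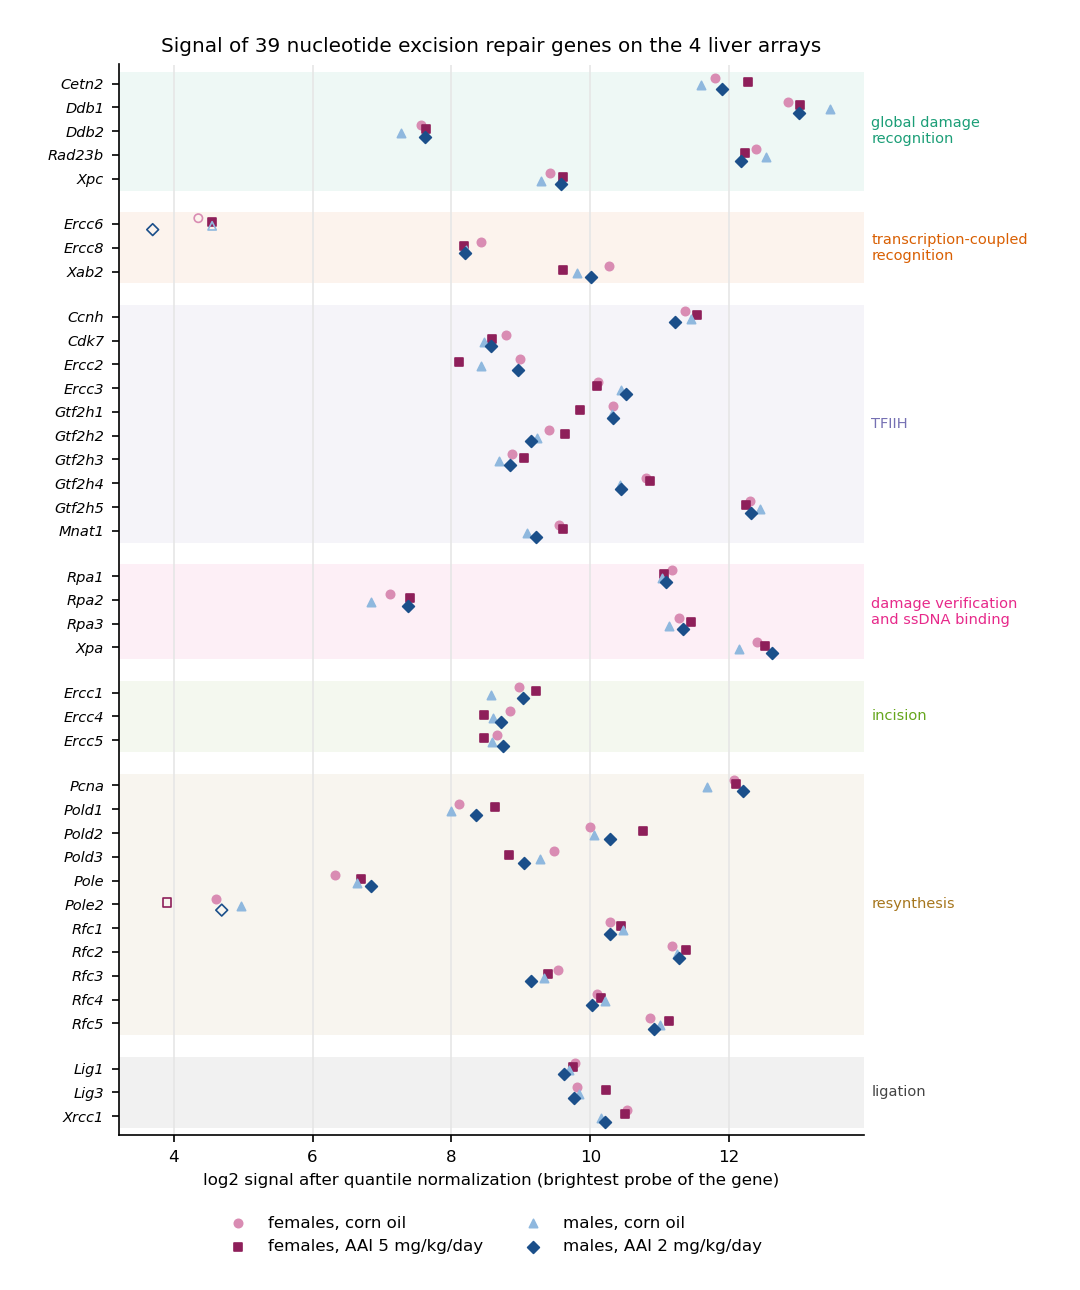
Log2 signal (x axis) of the brightest probe of each of the 39 genes on the 4 arrays, 1 pool of 5 mice each, grouped by step of the pathway; open symbols are not well above background. The 4 symbols of a gene lie close together for most genes, and those of Ercc2, Xab2, Pold2 and Pold3 in AAI-treated females stand apart from the female control.

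Among the genes of global damage recognition, Xpc and Cetn2 were higher and Rad23b and Ddb1 lower after AAI in males. Xpc, the damage sensor itself, had signals of 9.42 and 9.61 in corn oil- and AAI-treated females and of 9.30 and 9.57 in males, ratios of 0.18 and 0.28. Cetn2, a centrin that stabilizes XPC, had 11.79 and 12.27 in females and 11.59 and 11.89 in males, ratios of 0.48 and 0.30 that exceeded the SD between probes in both. Its ratio in females ranged from 0.40 to 0.48 over the alternatives tried. Rad23b, the other partner of XPC, was lower instead, with ratios of -0.16 and -0.35. Ddb1 and Ddb2 form the UV-damage binding complex, a ubiquitin ligase adaptor and its damage-binding subunit. Ddb1 had signals of 12.84 and 13.02 in females and of 13.45 and 13.01 in males, so that the highest value was in male controls and the 3 other pools lay within 0.18 of each other. Its ratio was 0.18 in females and -0.45 in males. Ddb2 had 7.56 and 7.63 in females and 7.28 and 7.61 in males, ratios of 0.07 and 0.34. By their brightest probes all 5 genes exceeded the SD between probes in males, 3 of them upward and 2 downward, beside 54.9% of all genes. Only Cetn2 did in females, beside 54.1%. The other probe of Xpc had -0.25 in females and 0.14 in males, and that of Ddb2 had 0.08 and 0.17, all within that SD. The other probes of Rad23b had -0.36, -0.12, -0.44 and 0.28 in females, all but -0.12 beyond that SD, and -0.26, -0.07, -0.07 and 0.69 in males.

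In the transcription-coupled branch, Xab2, a splicing factor that binds XPA and the stalled polymerase, had signals of 10.26 and 9.60 in corn oil- and AAI-treated females and of 9.81 and 10.01 in males. It was 1.58-fold lower in treated females and 1.15-fold higher in treated males. The female ratio of -0.66 shrank to -0.23 with the trend correction applied to all arrays, which is within the SD between probes, as its spot also lies in the first column. Ercc8, the CSA subunit of a ubiquitin ligase, had ratios of -0.23 and -0.01. Ercc6, the CSB ATPase that senses the stalled polymerase, was above background only in AAI-treated females, at 4.55, and its other 2 probes were above background on no array. Its ratio in females, 1.14-fold higher, was the plain ratio to a control signal of 4.35 that was not above background. No ratio could be given in males, whose control signal of 4.55 was not above background either.

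TFIIH is built of 7 core subunits and the 3 subunits of the CDK-activating kinase, and it acts in transcription as well as in repair. By their brightest probes, apart from Ercc2, and from Gtf2h1 in females, its genes differed by less than the SD between probes. Gtf2h1, the p62 scaffold, was lower in treated females, with 10.33 against 9.85, and had 10.32 and 10.33 in males by its brightest probe. All 3 Gtf2h1 probes had ratios in females between -0.61 and -0.41, and the other 2 had -0.55 and -0.13 in males. Ercc3, the XPB translocase, had ratios of -0.02 and 0.06, but its dimmer probe had 0.66 in females. The other core subunits Gtf2h2, Gtf2h3, Gtf2h4 and Gtf2h5 had ratios of 0.24, 0.17, 0.06 and -0.06 in females and of -0.09, 0.16, 0.02 and -0.13 in males. In the kinase, Cdk7 had -0.20 and 0.10, Mnat1, its assembly factor, 0.07 and 0.13, and Ccnh, its cyclin, 0.17 and -0.22. Several dimmer probes lay beyond that SD. That of Gtf2h2 had -0.29 in females and -0.23 in males, and that of Gtf2h3 0.34 in females and a bound of -0.26 in males. The dimmest of Gtf2h5 had 0.50 and -0.43, and its other 0.07 and 0.13. The second brightest of Ccnh had 0.14 and -0.31, and its others lay within that SD. Of the 10 subunits, 5 in females and 7 in males had a positive ratio.

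The 4 genes of damage verification and single-strand binding were all higher in treated males, by 0.06 to 0.53, and 3 of 4 were in females, beside 53.5% and 51.6% of all genes with a positive ratio. Beyond the SD between probes were 2 of the 4 in males and 1 in females. Xpa, which checks the lesion and holds the incision complex together, had signals of 12.40 and 12.51 in corn oil- and AAI-treated females and of 12.15 and 12.61 in males. The male control was the lowest of the 4 pools, and the ratio was 0.46 in males, beyond the SD between probes, and 0.11 in females. Rpa2, the phosphorylated middle subunit of RPA, had 7.11 and 7.40 in females and 6.85 and 7.38 in males, ratios of 0.29 and 0.53 that both exceeded that SD. The large subunit Rpa1 had ratios of -0.12 and 0.06 and the small subunit Rpa3 0.17 and 0.20. The probes of Xpa differed among themselves, and their first bases are shown because they lie at different places of the gene.
Xpa brightest probe (NM_011728, chr4:46188146-46188205, minus strand, bases 1 to 30): agaagatgacatgtaccgcaagacttgtac
Xpa further probe (NM_011728, chr4:46197241-46197300, minus strand, bases 1 to 30): ataaccaagacagaagcgaagcaagagtac
Xpa cDNA probe (AK133577, chr4:46188408-46188467, minus strand, bases 1 to 30): ttctgttactacacttcgaatccatatagc
The further probe had ratios of -0.06 in females and 0.42 in males, near those of the brightest. The cDNA probe, designed on a cDNA record and not on the RefSeq transcript, had signals of 5.47 in corn oil-treated females and 7.27 in corn oil-treated males and was not well above background after AAI in either sex. Its ratio was a bound, at or below -1.67 in females and -2.57 in males, opposite to the other probes in males.

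Of the incision nucleases, Ercc1 and Ercc4 each passed the SD between probes in 1 sex by their brightest probes. Ercc1, the partner that anchors the nuclease XPF on the 5′ side of the lesion, had 8.98 and 9.22 in corn oil- and AAI-treated females and 8.58 and 9.03 in males, ratios of 0.24, within that SD, and 0.45, beyond it. Its second probe had 0.49 and 0.31. Ercc4, which encodes XPF, had 8.85 and 8.47 in females and 8.59 and 8.71 in males, ratios of -0.38 and 0.12, and a dimmer probe gave 0.19 in females and -0.96 in males. Ercc5, the XPG nuclease of the 3′ side, had ratios of -0.18 and 0.15 by its brightest probe. That female ratio became 0.19 with the trend correction applied to all arrays. Its dimmer probes had 0.67 and -0.01 in females and 0.05 and -0.26 in males, of which 0.67 and -0.26 lay beyond the SD between probes.

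The 11 genes of resynthesis went in both directions. Pcna, the sliding clamp of the polymerases, had signals of 12.07 and 12.10 in corn oil- and AAI-treated females and of 11.68 and 12.20 in males. The male control was again the lowest pool, and Pcna was 1.43-fold higher in treated males and within 1.03-fold in females. Pold1, the catalytic subunit of polymerase delta, had 8.11 and 8.62 in females, a ratio of 0.51, and a ratio of 0.36 in males. Pold3, a further subunit, went the other way, with signals of 9.48 and 8.83 in females and of 9.28 and 9.05 in males, ratios of -0.66 and -0.23. A stretch of its brightest probe is shown because a second RefSeq probe gave the opposite sign.
Pold3 probe (NM_133692, chr7:107230645-107230704, minus strand, bases 1 to 30): gaatggaaaagtacaaggcaaccatccagt
That second probe had 7.17 and 7.47 in females, a ratio of 0.30, and a ratio of 0.24 in males. Pole, the catalytic subunit of polymerase epsilon, had ratios of 0.38 and 0.21, and its 3 probes lay between 0.34 and 0.38 in females and between 0.21 and 0.44 in males. The brightest probe of Pole2, the second subunit, was above background only in the controls, at 4.61 in females and 4.97 in males. Its signal in treated females, 3.90, was not above background, and the 1.64-fold lower value is the plain ratio to it. In males the log2 ratio was a bound of -0.26. The other probe of Pole2 was above background only in AAI-treated males, at 5.34, a bound of 1.05 and thus the opposite sign. By their brightest probes the 5 clamp loader subunits Rfc1 to Rfc5 had ratios of 0.16, 0.20, -0.15, 0.06 and 0.27 in females and of -0.19, 0.03, -0.19, -0.19 and -0.08 in males. Of these only that of Rfc5 in females exceeded the SD between probes. Rfc5 had 2 further probes, with -0.35 and 0.16 in females, and the mean of its probes was 0.03. For ligation, Lig3 had 9.80 and 10.23 in females and 9.84 and 9.77 in males, and its scaffold Xrcc1 and the replicative ligase Lig1 had ratios between -0.06 and 0.05 in both sexes.

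**Figure D3:**
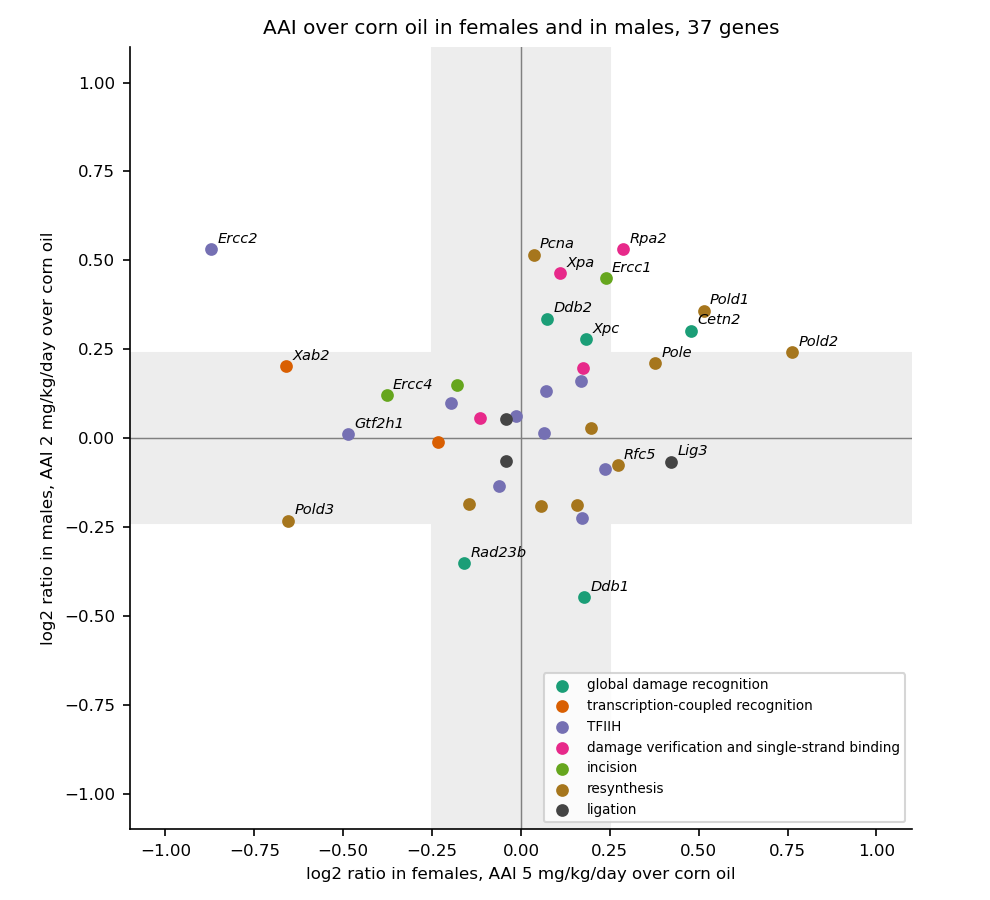
Log2 ratio of AAI over corn oil in females (x axis, 5 mg/kg/day) against that in males (y axis, 2 mg/kg/day) for the 37 genes above background on all 4 arrays, coloured by step; grey bands mark the median SD between probes of the same gene (0.25 in females, 0.24 in males). Cetn2, Rpa2, Pold1 and Pold2 lie beyond both bands as higher in both sexes, Ercc2 lies in the upper left, and no gene lies beyond both bands as lower in both.

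Across the sexes the ratios of the members were weakly related. They correlated with Pearson's r of 0.10 and Spearman's rho of 0.22 over 37 genes, which share the arrays and the normalization, and over 28196 genes of the array r was 0.33. The sign was the same for 21 genes (15 higher and 6 lower in both), 7 had a positive ratio in females alone, and 9 in males alone. The share of all genes with the same sign was not computed, so these counts only describe the members. Counting genes that passed the SD between probes in each sex, 4 were higher in both (11.3% of all genes were) and 0 were lower (9.5% of all genes were). The 4 were Cetn2, Rpa2, Pold1 and Pold2, and none of them stayed beyond that SD in both sexes over all 8 alternatives. Ratios that stayed beyond the SD over all 8 alternatives numbered 6 in females (Cetn2, Ercc2, Gtf2h1, Lig3, Pold1 and Pold2), beside 25.4% of all genes, and 5 in males (Ddb1, Ercc1, Ercc2, Pcna and Rpa2), beside 32.2%. Of these, 4 in each sex rest on 1 usable probe, which averaging the probes cannot move.

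**Figure D4:**
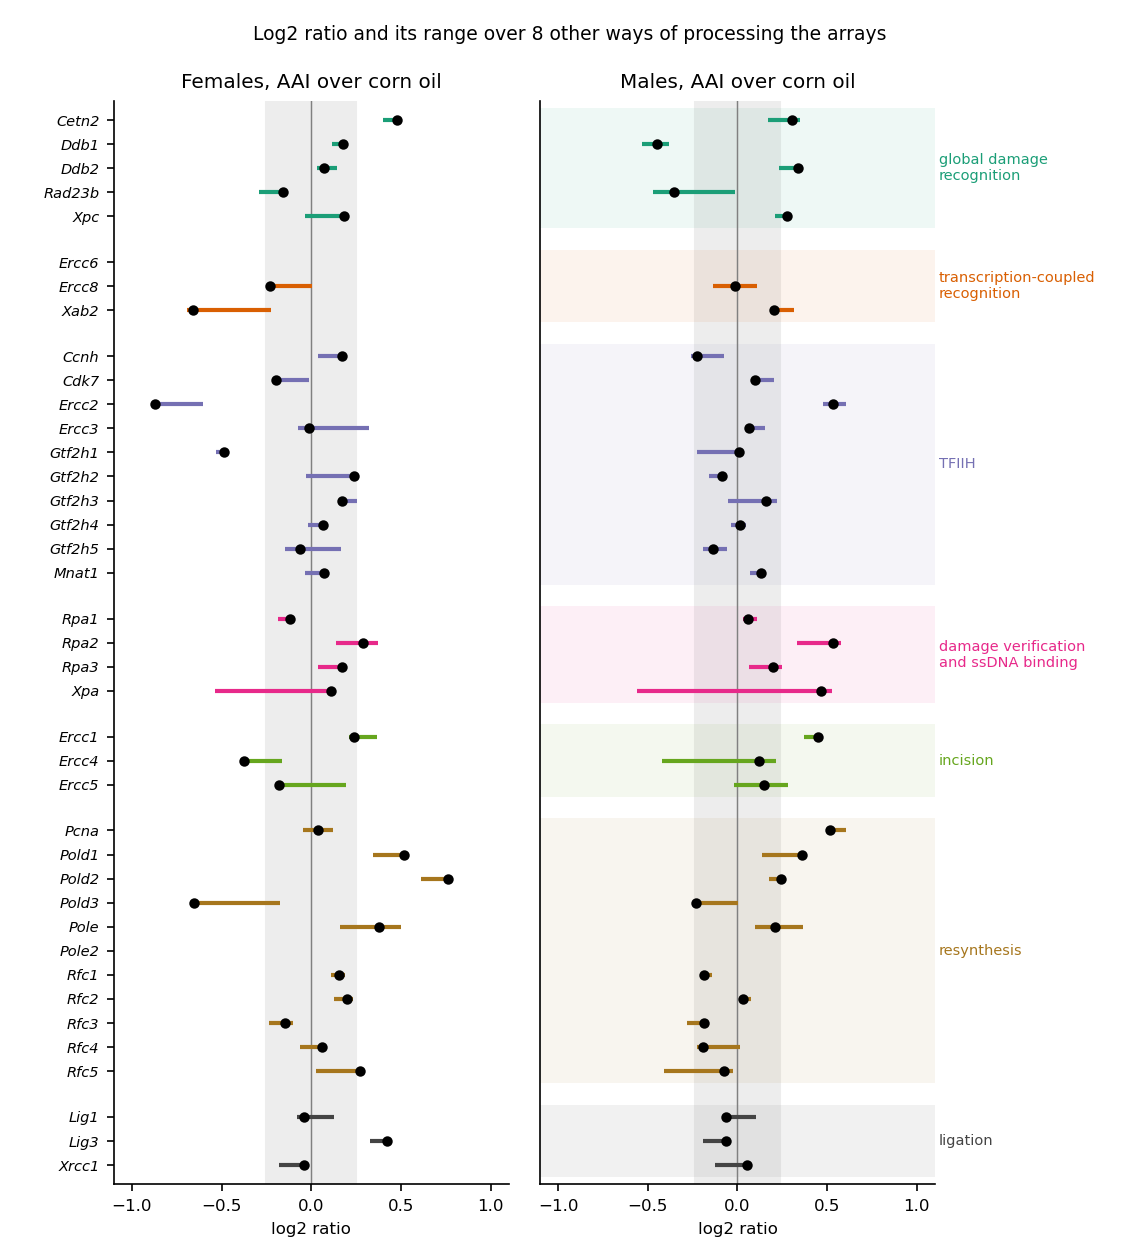
Log2 ratio of AAI over corn oil (x axis) of each gene as reported (black points) with its range over the 8 other ways of processing (coloured lines) in females (left) and males (right); the grey band is the median SD between probes, and Ercc6 and Pole2 have no point because they were above background on too few arrays. Ercc2 lies between -0.89 and -0.61 in females and between 0.48 and 0.60 in males, and Xpa has the longest line in both sexes, down to -0.54 and -0.56 where all its probes were averaged.

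In the corn oil-treated groups the members were slightly higher in females than in males. The median log2 difference, females minus males, was 0.14 over 38 genes, beside 0.02 over all genes, and 25 of 38 genes were higher in females (65.8%, beside 52.4% of all genes). No member differed 2-fold (5.65% of all genes did), and 1 differed 1.5-fold (17.9% of all genes did). This was Ddb1, 1.53-fold higher in males. The difference exceeded the SD between probes in 16 genes (42.1%, beside 52.8% of all genes). Outside resynthesis 21 of 27 genes were higher in females, led by Ercc2 (0.56), Mnat1 (0.46), Xab2 (0.45) and Ercc1 (0.40), whereas 4 of 11 resynthesis genes were, with Pcna (0.38) at the top and Pole2 (-0.35) at the bottom.

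**Figure D5:**
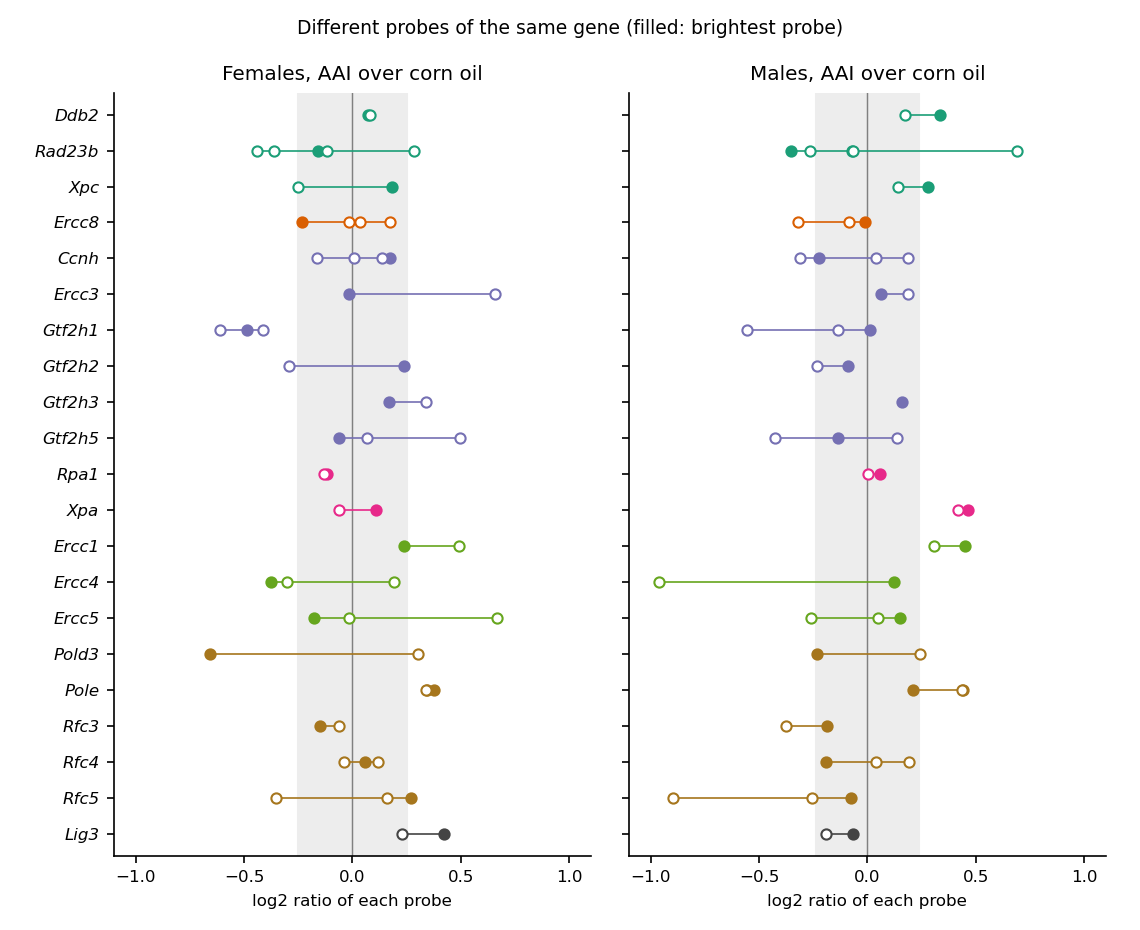
Log2 ratio of AAI over corn oil (x axis) of every probe above background on both arrays, for the 21 genes with several such probes, in females (left) and males (right); filled circles are the brightest probes, open circles the others, and the grey band is the median SD between probes. In females the probes of 8 of 21 genes lay on the same side of 0 and in males those of 12 of 20, and the widest spans were those of Pold3 in females and Ercc4 in males. The share of all genes with probes on the same side was not computed, so these counts describe the members only.

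Different probes of a member often disagreed in sign, though they lay closer together than those of genes at large. The median SD between probes was 0.17 over 21 members in females and 0.15 over 20 in males, beside 0.25 and 0.24 over all genes with several probes. The bar used above is the wider SD of all genes. The median span between the lowest and highest probe of a gene was 0.34 in females and 0.27 in males, and the widest were 0.96 for Pold3 in females and 1.08 for Ercc4 in males. The 8 genes whose probes had the same sign in females were Ercc1, Pole, Lig3, Ddb2 and Gtf2h3, all higher, and Gtf2h1, Rpa1 and Rfc3, all lower.

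Other genes of the pathway and of neighbouring repair pathways passed the SD between probes in females more often than the members did, a difference that was not tested. That SD was passed in females by 13 of 18 further nucleotide excision repair genes (72.2%) and 9 of 13 base excision repair genes (69.2%). It was also passed by 4 of 8 mismatch repair genes (50.0%) and 4 of 6 lesion bypass genes (66.7%), beside 32.4% of the members and 54.1% of all genes. In males 5, 5, 5 and 4 of them passed (27.8%, 38.5%, 62.5% and 66.7%), beside 32.4% of the members and 54.9% of all genes. Of the 18 further nucleotide excision repair genes, none was 2-fold changed, 2 were 1.5-fold higher and 1 lower in females and 1 was higher in males, and the medians were 0.22 and 0.04. Chd1l, a chromatin remodeller, had ratios of 0.62 and 0.05, Ino80, another remodeller, -0.60 and -0.34, and Pold4, the smallest polymerase delta subunit, 0.06 and 0.67. Of the 13 base excision repair genes 0 were 2-fold changed, and Ung, the uracil glycosylase, had -0.92 and -0.56, Neil1 -0.62 and -0.04, Mutyh 0.61 and 0.17 and Neil3 0.57 and 0.26. Of the 8 mismatch repair genes 1 was 2-fold lower in males, Pms1 with a ratio of -1.05 (and -0.04 in females), followed by Mlh3 with -0.61. The 6 lesion bypass genes had medians of -0.25 and -0.28, with Poli at -0.50 and -0.45, Rad18 at -0.39 and -0.54, Polh at -0.12 and -0.53 and Rev1 at -0.37 and 0.40.

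Genes of the p53 response and of proliferation were read in the same way. Of 10 genes of the p53 damage response, 1 was 2-fold higher and 2 were lower in females (1.34% and 3.07% of all genes), and 3 were higher and 0 lower in males (3.47% and 4.56%). Phlda3, a p53-induced repressor of Akt, had log2 ratios of 1.61 in females and 2.67 in males, Ccng1 0.44 and 1.51, Gadd45a 0.36 and 1.29, and Trp53inp1 -1.66 and -0.33. Cdkn1a, the p53-induced inhibitor of cyclin-dependent kinases and the other of the 2 lower genes, had -1.08 and 0.89, and it is named after its values were seen. Among the members, Xpc, Ddb2 and Pcna, which p53 induces in human cells, had ratios of 0.18, 0.07 and 0.04 in females and of 0.28, 0.34 and 0.52 in males. Of 23 replication and proliferation genes, 6 had a positive ratio in females and 11 in males, with medians of -0.10 and -0.00. Among them Ccnb1, a mitotic cyclin, had -0.43 and -1.40, Gins1 -0.13 and 0.86, Rrm2 -0.32 and 0.64 and Pola1 -0.65 and -0.29.

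The members were also compared by their promoters, which the choice of genes did not use. RefSeq promoters of build GRCm38.p6 were found for 33 of the 39 genes, and the 250 bases before the start were searched on both strands, with a promoter counted once per motif. The GC box core GGGCGG was found in 21 of 33 (63.6%, beside 32.9% of 27025 promoters), CCAAT in 17 (51.5%, beside 34.5%), the ETS core CGGAAG in 14 (42.4%, beside 13.8%) and the NRF1 core GCATGCGC in 4 (12.1%, beside 2.32%). TATAAA was found in 0 of 33 (beside 13.0%), and the E2F sites TTTGGCGC and TTTCCCGC in 0 (beside 0.437% and 0.929%). The CRE TGACGTCA was found in 1, Xab2 (beside 1.62%). The median GC content was 58% and the observed over expected CpG was 0.83, beside 52% and 0.38 over all promoters. The 2 genes with the lowest and highest ratio in females are shown, with matches in capitals, read on either strand.
Ercc2 promoter (chr7:19381767-19382016, plus strand): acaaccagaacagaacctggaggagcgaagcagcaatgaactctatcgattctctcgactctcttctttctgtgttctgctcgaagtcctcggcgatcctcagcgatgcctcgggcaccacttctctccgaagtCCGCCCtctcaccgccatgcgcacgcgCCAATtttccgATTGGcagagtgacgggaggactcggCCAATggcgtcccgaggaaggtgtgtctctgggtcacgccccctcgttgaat
Pold2 promoter (chr11:5878257-5878506, minus strand): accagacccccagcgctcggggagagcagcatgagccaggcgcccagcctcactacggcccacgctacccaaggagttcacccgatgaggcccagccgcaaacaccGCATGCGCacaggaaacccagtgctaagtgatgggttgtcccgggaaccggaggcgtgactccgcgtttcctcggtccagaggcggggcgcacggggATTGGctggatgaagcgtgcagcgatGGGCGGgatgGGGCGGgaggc
Both hold CCAAT and a GC box, and only that of Pold2 holds the NRF1 core. These matches are a description of the sequence, and no binding was measured. In the genome the 39 genes lie on 16 chromosomes, with 7 on chromosome 7, among them Ercc1 and Ercc2, and 6 on chromosome 5, among them 4 of the 5 clamp loader genes.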

How the data were processed

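RNA was measured on 4 single-channel Agilent SurePrint G3 mouse arrays. The authors used Feature Extraction 10.5.1.1 on the scans. Per array, they deposited the linear intensity before and after background subtraction and the processed intensity, which is not normalized between arrays. They also deposited a table of raw and quantile normalized intensity, used as an alternative. Its raw intensity equalled the processed intensity within 1% on 100% of 56393 probes.

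Here log2 of the processed intensity was taken without control spots, outlier spots and spots whose value had been replaced by the background (0 to 92 per array, none of a member), the spots of a probe were averaged, and the arrays were quantile normalized over the 56393 of 56605 probes with a value on each (Python 3.11.15, numpy 2.4.6, pandas 2.3.3). Of 59305 spots per array, 75.8% to 82.3% were well above background, and 0 were saturated. The number of arrays limits the precision. Where a probe was above background on 1 array only, the ratio was taken against the higher of the lowest such signal and the dim value. It is a bound only where the former was the higher. Motif matches, RefSeq symbols (37 of 37 accessions had the same symbol) and spans came from the reference tables. Alternatives were scaling to the 75th percentile, normexp with an offset of 50 (limma 3.58.1), no trend correction, the authors' values, replaced spots kept, the mean of all probes, other filters on dim probes, other folds and, added after the data were seen, the trend correction on all arrays. The steps were tested on simulated data. Named genes are all members and at most 4 per further list, those with the largest ratio in either sex; some of these are not reported here. Members and lists were chosen with earlier results of these data known.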

Additional observations from a re-analysis of the deposited data

Results flagged for a closer look

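Ercc2 was singled out because its log2 ratio of AAI over corn oil went in opposite directions in the sexes, at -0.87 in females (5 mg/kg/day) and 0.53 in males (2 mg/kg/day), each beyond the SD between probes and with the same sign under all 8 alternatives. The difference was not tested, since each group is 1 pool, and sex and dose cannot be told apart. The corn oil-treated female pool was 0.56 above the male one, and the levels ran in the order female control (8.99), treated males (8.96), male control (8.42) and treated females (8.11), of which the first 2 lie within the SD between probes. The spot lies in the first array column, where the fitted trend surface was 0.86 on the array of AAI-treated females and 0.92 on that of their controls, and the female ratio was -0.63 with the correction on all arrays and -0.61 with normexp.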

How the results depend on the processing

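No paired analysis was possible because each group is 1 array, and no replicate could be left out. By its brightest probe or the mean of its probes, no member was 2-fold changed in either sex under any scaling, background correction or filter tried; single probes of Xpa and Pole2 had bounds beyond it. At a fold of 1.5, females had 4 lower members and 1 higher. Across these settings the members 1.5-fold lower in females numbered 1 to 4, and those higher in males 0 to 2. The median ratio in females was 0.11 with the trend correction on all 4 arrays, 0.037 with the mean of all probes and 0.047 with scaling to the 75th percentile, where that of all genes was 0.074. In males it was 0.10 without trend correction and 0.015 with the mean of all probes. The difference between the corn oil-treated sexes was 0.20 with scaling to the 75th percentile, where the median of all genes was 0.09, and 0.10 with the mean of all probes. Of 74 single ratios, averaging all probes moved 9 by more than the SD between probes, normexp 3, leaving the trend uncorrected 2, correcting it on all arrays 2 and the other settings 0. The sign was kept under all 8 alternatives by 25 of 37 ratios in females and 26 in males. Signals near background, as for Ercc6 and Pole2, allow only bounds or ratios to a signal not above background. Without replicates none of these values carries the spread between mice.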
